A study of Leucoraja erinaceus with 4 samples.

Results

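The synarcual and the post-synarcual of stage 28 little skate embryos (Leucoraja erinaceus), a cartilaginous fish, were compared by RNA sequencing. The comparison rests on 2 of the 4 libraries of the series, the synarcual and the post-synarcual library of stage 28, which were taken by their labels. The other 2 libraries are the same regions at stage 33. The wording of the labels' protocol names males at the 2 stages and does not settle how many animals each library holds. Each region was freed of the central nervous system and of the axial muscle before freezing, and no treatment or genotype is given for any of the embryos.

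The synarcual is a tube of cartilage at the front of the vertebral column of skates and rays, formed where neighbouring vertebrae are joined, and it carries the head and the wide pectoral fins. Behind it, in the post-synarcual, the vertebrae stay separate. Cartilage is built by chondrocytes, which secrete a matrix rich in fibrillar collagen and proteoglycan, and position along the vertebral column is set in vertebrates largely by the Hox genes. The series is titled for the development of this structure, and the comparison asks how the part of the axis that forms it differs in its RNA from the part that does not.

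The RNA was measured over 23105 assembled features, the genes of a de novo transcriptome. The files do not pair these features with gene names, and 0 identifiers matched the RefSeq gene table of the species. Features are therefore described by length, level and identifier. The cartilage genes, the Hox genes and the markers of muscle or nerve were not analysed here, so the tissue labels could not be set against their defining markers. Transcript sequences were not used here. The stage 28 synarcual library holds 4167062 counts and the post-synarcual library 3922525. In the synarcual 20712 features had at least 1 count, against 20555 in the post-synarcual. Each group is 1 library, so no difference has a replicate check, no p-value is given, and the 95% intervals (Clopper-Pearson) cover counting error only. In bulk tissue, fewer cells of a type and less RNA per cell cannot be told apart.

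At stage 28 the regions were alike for most features, and a small part of the transcriptome stood apart in both directions. Features were compared where the higher library held at least 50 counts, which left 10582 features with 97.2% of the synarcual counts and 97.1% of the post-synarcual counts. Folds are ratios of the synarcual over the post-synarcual after scaling by TMM, a trimmed mean of ratios, and log2 folds carry a prior count of 2. The median log2 fold was 0.014, the middle 50% of features lay between -0.28 and 0.29, and 72.9% of features lay within 0.5 of 0. Of the 10582 features, 465 (4.39%) reached 2-fold in favour of the synarcual and 522 (4.93%) were 2-fold or more below it, 9.33% in all. Past 4-fold, 118 (1.12%) were higher and 173 (1.63%) lower. Past 8-fold the numbers were 51 higher and 62 lower, past 16-fold 14 and 20, and past 32-fold 3 and 9. The counting interval lay wholly beyond 2-fold for 251 features higher in the synarcual (2.37%) and 308 lower (2.91%). In deposited TPM, with a pseudocount of 0.1, 385 features were 2-fold higher and 675 lower, so that 36.3% of the differences were upward against 47.1% with TMM scaling, and the median log2 fold of all compared features was then -0.12.

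Features just inside and just outside the threshold had like counts. The 78 features with log2 folds from 1.0 to 1.1 had median counts of 158 (synarcual) and 74 (post-synarcual), and the 85 features just below, from 0.90, had 128 and 64. On the lower side the 71 features just inside had median counts of 66 and 133, and the 83 just outside had 83 and 154.

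**Figure D1:**
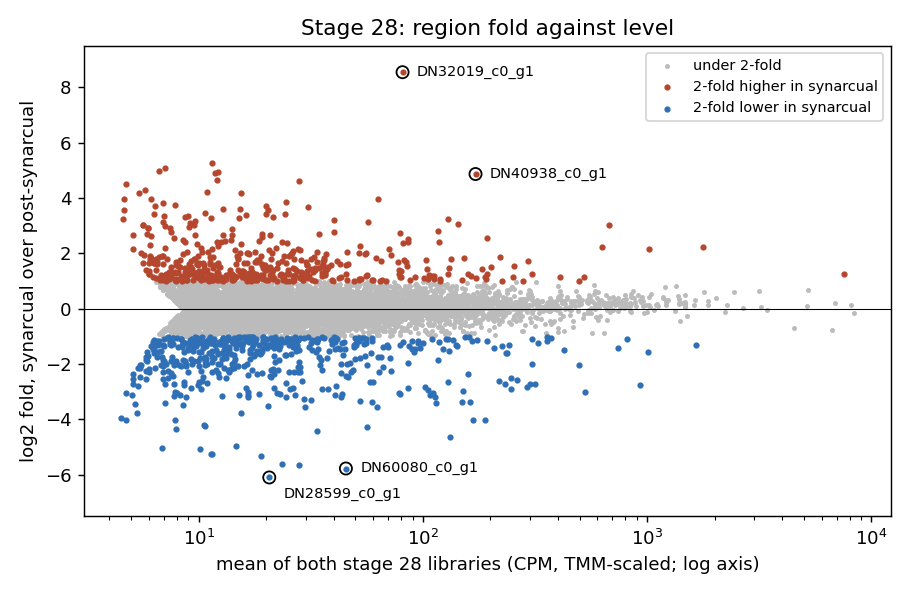
Each point is 1 of 10582 features at stage 28; the horizontal axis is the mean of both libraries in TMM-scaled CPM on a log axis, and the vertical axis is the log2 fold of the synarcual over the post-synarcual. The 465 features higher and the 522 lower by 2-fold or more are coloured, and the 4 circled features are those described by identifier.

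The 4 features whose counting intervals lay farthest from a ratio of 1, 2 in each direction, follow with their counts. TRINITY_DN32019_c0_g1, a feature of 674 bp, gave 939 synarcual counts and 0 post-synarcual counts at stage 28, and 1 and 0 at stage 33. It was thus found almost wholly in a single library of the 4, where it ranked at 640 by count. Set against a floor of 3 counts in the post-synarcual library, the synarcual level was 306-fold higher. The lower limit of the counting interval puts it at least 249-fold above the post-synarcual level. Its deposited level was 604 TPM in the synarcual, and it is listed at 0 in the post-synarcual. TRINITY_DN40938_c0_g1 (2042 bp) gave 1923 synarcual counts against 62 post-synarcual counts. That is a 30.4-fold higher level (23.6 to 39.8), or 330 against 11.4 TPM. At stage 33 it had 30 and 25 counts, and the ratio of 0.936 had an interval of 0.532 to 1.66, so that no region difference was detectable.

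On the other side, TRINITY_DN28599_c0_g1 (2000 bp) gave 1 synarcual count against 233 post-synarcual counts at stage 28. The ratio was 0.0042, its interval reaching from 0.00011 to 0.024. In TPM this was 0.15 against 50.9. Its stage 33 counts of 41 and 37 gave a ratio of 0.864 (0.541 to 1.39). TRINITY_DN60080_c0_g1 (861 bp) gave 7 synarcual counts against 507 post-synarcual counts, 74.0-fold lower (35.6 to 185). It had 7 and 3 counts at stage 33, too few to measure a fold. All 4 features are the sole features of their assembly components, so no close copy in the assembly shares their component. For all 4, the stage 33 libraries held 41 counts or fewer.

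A wider set had at least 50 counts in one region and at most 3 in the other. There were 16 such features in the synarcual, 4 of them with 0 counts in the post-synarcual, and 14 in the post-synarcual, 1 of them with 0 counts in the synarcual. Those of the synarcual had a median of 74 counts there (50 to 939) and a median length of 1307 bp. The 14 of the post-synarcual had a median of 101 counts (50 to 263) and a median length of 1732 bp. At stage 33 the sets went separate ways. Of the 16 synarcual features, 13 had 3 counts or fewer in both stage 33 libraries and 0 reached 50 in either. Of the 14 post-synarcual features, 5 had 3 or fewer in both and 7 reached 50, and 3 of these 7 were again at least 2-fold lower in the synarcual. Among all 10582 compared features, 0.803% had 3 or fewer in both stage 33 libraries and 22.45% reached 50 in neither. Of the 8206 features measured at both stages, 3.83% were 2-fold lower at stage 33.

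The most abundant RNAs were largely common to the regions. Of the 10 most abundant features of each library 9 were shared, of the top 100 there were 86, and of the top 1000 there were 848. Among the 114 features in the top 100 of at least 1 of the regions, 5 were 2-fold higher in the synarcual and 7 lower. Over all 10582 compared features 4.39% were higher and 4.93% lower, so 2-fold differences were not rarer among the most abundant features. The highest count of the synarcual belonged to a feature of 9530 bp, with 61854 counts there against 25121 post-synarcual counts, where it ranked at 7. Its fold was 2.41 (2.38 to 2.45), and at 10697 against 4437 CPM after TMM scaling it was the largest absolute difference between the regions. The highest count of the post-synarcual was that of a feature of 4338 bp, with 45672 synarcual counts against 49876 post-synarcual counts and a fold of 0.897 (0.885 to 0.908). The features with the next highest counts in the post-synarcual also differed by less than 2-fold. A feature of 6295 bp had 28454 and 47672 counts, 1.71-fold lower in the synarcual (1.69 to 1.74), and one of 2059 bp had 49044 and 43838 counts, a ratio of 1.095 (1.08 to 1.11).

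Among features past 2-fold, the largest absolute differences upward in the synarcual came after that of 9530 bp mainly from short features. A feature of 590 bp gave 16974 synarcual counts against 3505 post-synarcual counts. It was 4.74-fold higher (4.57 to 4.92), and per length it was the most abundant feature of the synarcual, at 12929 TPM against 3129 TPM in the post-synarcual. A feature of 792 bp had 9607 and 2094 counts and was 4.49-fold higher (4.28 to 4.71). One of 1015 bp was 8.08-fold higher (7.52 to 8.69), with 6924 and 839 counts, and one of 585 bp was 4.68-fold higher (4.40 to 4.97), with 6015 and 1259 counts. Reads of the 585 bp feature may be shared, since its assembly component holds 2 features.

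The largest absolute differences downward past 2-fold came from longer features or from features that were much more abundant at stage 33. A feature of 6020 bp gave 5457 synarcual counts against 13280 post-synarcual counts and was 2.49-fold lower (2.41 to 2.57). At stage 33 it held 367344 and 350272 counts. A feature of 1507 bp was 6.84-fold lower (6.46 to 7.24), with 1370 and 9169 counts, and its stage 33 counts were 19674 and 60633. A feature of 1026 bp had 2923 and 8542 counts, 2.98-fold lower (2.86 to 3.11), and 36666 and 102624 at stage 33; its component holds 7 features, so its counts are uncertain. The remaining ones had fewer counts, before scaling, at stage 33 than at stage 28. The feature of 4461 bp had 671 and 5342 counts, 8.13-fold lower (7.50 to 8.82), against 410 and 428 counts at stage 33, and the feature of 4178 bp had 2348 and 6139 counts, 2.67-fold lower (2.55 to 2.80), against 1680 and 2721. After TMM scaling this last feature stood at 406 CPM in the synarcual at stage 28 and 429 CPM there at stage 33, so its synarcual level was not lower at stage 33 on that scale.

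Together the 465 higher features took 5.81% of counts (5.79 to 5.83) in the synarcual against 2.04% (2.03 to 2.06) in the post-synarcual. The 522 lower features took 1.67% (1.66 to 1.68) and 5.87% (5.84 to 5.89). At stage 28 the sets were of like weight in the library where they were higher, and at stage 33 they were not. The same 465 features took 2.87% of the stage 33 synarcual counts and 3.50% of the post-synarcual counts, while the 522 lower features took 22.9% and 33.3%. The order of the stage 33 regions in the higher set rested on its most abundant members. The 5 most abundant, ranked library by library, held 1.43% and 2.84%, the 9530 bp feature alone 1.08% and 2.74%. Without the 5 of each library the higher set took 1.44% of the stage 33 synarcual counts and 0.655% of the post-synarcual counts. Of the 100 most abundant features at stage 33, the lower set supplied 26 (synarcual) and 32 (post-synarcual), and the higher set 2 and 1. The share of the lower set rested partly on a few features. Its 5 most abundant members were ranked in each stage 33 library, and they were not all the same features. They held 13.4% of the stage 33 synarcual counts and 16.7% of the post-synarcual counts. The rest of the set held 9.54% and 16.7%.

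**Figure D2:**
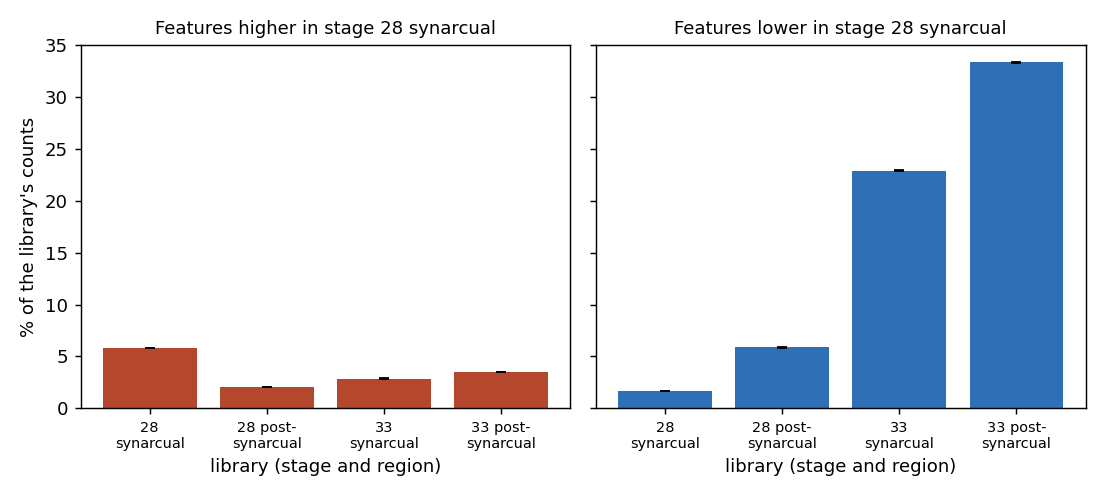
Bars give the share of each library's counts, in percent, held by the 465 features higher and the 522 lower in the stage 28 synarcual, with 95% Clopper-Pearson intervals. The lower set holds 1.67% and 5.87% of counts at stage 28 and 22.9% and 33.3% at stage 33.

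From stage 28 to stage 33 the medians per length moved in the direction of these shares in the synarcual, and against them in the post-synarcual. The 465 higher features had a median of 27.1 synarcual TPM against 9.28 post-synarcual TPM at stage 28, and of 9.62 and 4.39 TPM at stage 33. The 522 lower features had medians of 6.58 and 25.5 TPM at stage 28 and of 14.3 and 15.8 TPM at stage 33. Over all compared features the medians were 23.5 and 25.8 TPM at stage 28 and 17.1 and 11.7 TPM at stage 33. The higher stage 33 value lay above the higher stage 28 value in 99 of the 465 higher features, in 238 of the 522 lower features, and in 2274 of all 10582. By share, the higher set was close to all compared features in this, and the lower set lay above them.

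Features most strongly higher in the synarcual at stage 28 were mostly scarce at stage 33, and those most strongly lower were mostly not. Of the 51 features at least 8-fold higher, 21 (41.2%) had 3 counts or fewer in both stage 33 libraries, and the median of their higher stage 33 count was 5. Their higher stage 28 count had a median of 122. Of the 62 features at least 8-fold lower, 7 (11.3%) had 3 or fewer, and the median higher count was 184 at stage 33 and 221 at stage 28. Among all compared features 0.803% had 3 counts or fewer at stage 33, and the median higher count was 176 at stage 28 and 108 at stage 33. The counts behind the 8-fold sets thus differed at stage 28 as well, by 122 against 221.

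The region fold at stage 33 was then read for the features that differed at stage 28. These folds come from other libraries, and 50 counts in the higher stage 33 library were again required. Of the 465 higher features 244 could be measured, and 111 (45.5%) reached 2-fold in the same direction there too. Of the 522 lower features 376 could be measured and 143 (38.0%) were again 2-fold lower. These shares rest on the scaling: with total counts, which moved the stage 33 median log2 fold of all features to 0.46, they were 144 of 211 (68.2%) for the higher and 101 of 411 (24.6%) for the lower features. After TMM scaling, 399 (4.86%) of the 8206 features measured at both stages were 2-fold higher and 314 (3.83%) 2-fold lower at stage 33. The shares of all features with total counts were not worked out, so the 68.2% and 24.6% have no like base here. Direction alone was shared by 86.5% of the measured higher features and 79.8% of the measured lower features, where 49.7% of all 8206 were above 0 at stage 33 and 50.3% below. How far library, animal and region contribute to the shared direction was not tested.

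For the lower features the stage 33 fold grew with the stage 28 fold. Between 2- and 4-fold at stage 28, 66 of 256 measured features (25.8%) were 2-fold lower at stage 33 and the median log2 fold there was -0.44. Between 4- and 8-fold it was 47 of 79 (59.5%), with a median of -1.47, and past 8-fold 30 of 41 (73.2%), with a median of -1.61. The higher features did not show this order. Between 2- and 4-fold, 103 of 215 (47.9%) were 2-fold higher at stage 33, with a median log2 fold of 0.99. Between 4- and 8-fold it was 7 of 24 (29.2%), with a median of 0.46, and past 8-fold only 5 of 51 could be measured, 1 of them 2-fold higher. After TMM scaling, 23 features had the opposite direction at stage 33 by at least 2-fold. Of these, 8 were among the 244 measured features higher in the stage 28 synarcual and 15 among the 376 measured lower features. Of all 8206 features, 3.83% were 2-fold lower and 4.86% 2-fold higher at stage 33, so opposite folds were not more frequent among these features.

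**Figure D3:**
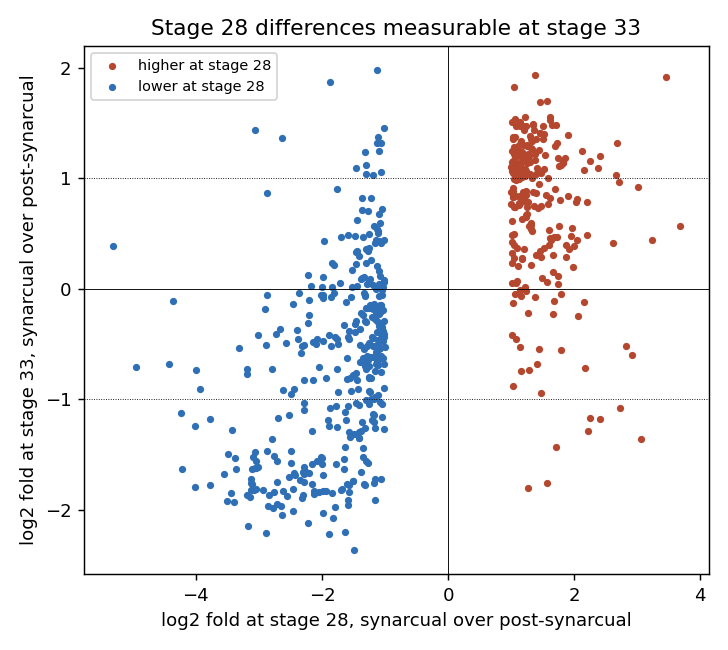
Each point is a feature at least 2-fold apart between the regions at stage 28 and with at least 50 counts in the higher stage 33 library, 244 higher and 376 lower; the axes are the log2 folds of the synarcual over the post-synarcual at stage 28 and at stage 33. Stage 28 folds spread widely on both sides, while all stage 33 folds lie between -2.37 and 1.98, and dotted lines mark 2-fold at stage 33.

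Region folds reached much farther at stage 28 than at stage 33. The range of log2 folds was -6.10 to 8.55 at stage 28, over 10582 features, and -3.24 to 2.34 at stage 33, over 9003. Past 8-fold there were 113 features (1.07%) at stage 28 and 1 (0.0111%) at stage 33, and past 16-fold 34 and 0. Smaller differences did not follow: past 1.5-fold there were 21.7% at stage 28 and 26.9% at stage 33. The contrast was present within the 8206 features measured at both stages, where 5 were 8-fold higher and 41 8-fold lower at stage 28, and 0 and 0 at stage 33. There the middle 50% of log2 folds ran from -0.26 to 0.27 at stage 28 and from -0.30 to 0.31 at stage 33. No test of this contrast was made, with 1 library per region and stage.

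**Figure D4:**
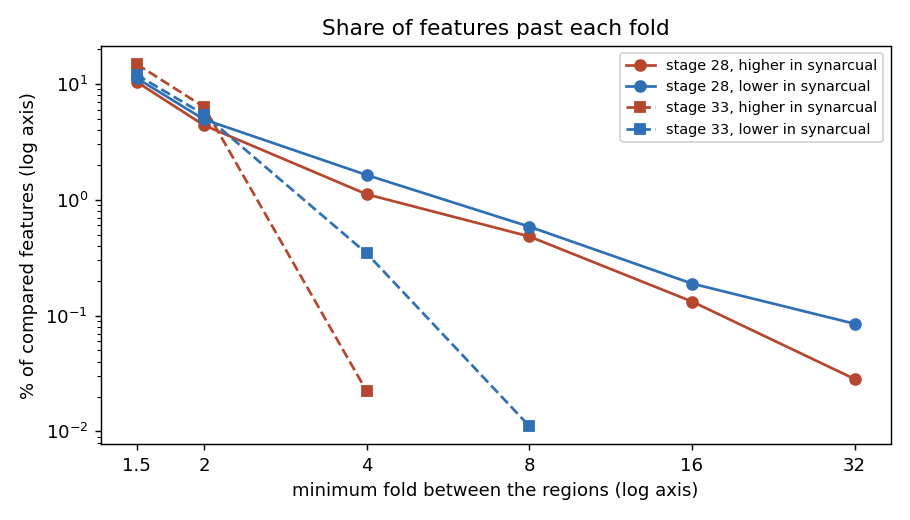
The vertical axis is the percentage of compared features past each minimum fold between the regions, both axes logarithmic, for stage 28 (10582 features) and stage 33 (9003 features); points at 0 are not drawn. Lines for the stages lie close together at 2-fold and part from 4-fold on, and those of stage 28 alone reach 32-fold.

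Folds at stage 28 varied with the length of the feature. The median log2 fold was 0.18 for features of 500 to 1000 bp, 0.12 for 1000 to 2000 bp, -0.0033 for 2000 to 4000 bp, -0.16 for 4000 to 8000 bp and -0.29 for the 156 features of 8000 bp or more. The 207 features under 500 bp had a median of -0.074 and broke this order. Of the 156 longest features 3 (1.92%) were 2-fold higher in the synarcual and 20 (12.8%) lower, while in the 848 of 500 to 1000 bp 51 (6.01%) were higher and 34 (4.01%) lower. With a minimum of 200 counts the same classes ran from 0.27 to -0.28, and in TPM from 0.041 to -0.43. At stage 33 the order of the medians was the other way, with -0.19 for 500 to 1000 bp and 0.086 for 8000 bp or more. In the longest class, though, 6 of 160 features (3.75%) were 2-fold higher at stage 33 and 10 (6.25%) lower. In that of 500 to 1000 bp, 24 (3.55%) were higher and 60 (8.88%) lower. The length of the sequenced fragments, taken as the difference between length and effective length in the files, was 190.5 bp for the stage 28 synarcual against 193.5 bp for the post-synarcual, and 201.6 bp and 193.2 bp at stage 33, so it was shorter in the synarcual at stage 28 and longer at stage 33. Its part in the length trend was not tested. When folds were centred within each length class, an alternative chosen after the data were examined, 439 features were 2-fold higher and 504 lower, and in the longest class 5 were higher and 12 lower.

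**Figure D5:**
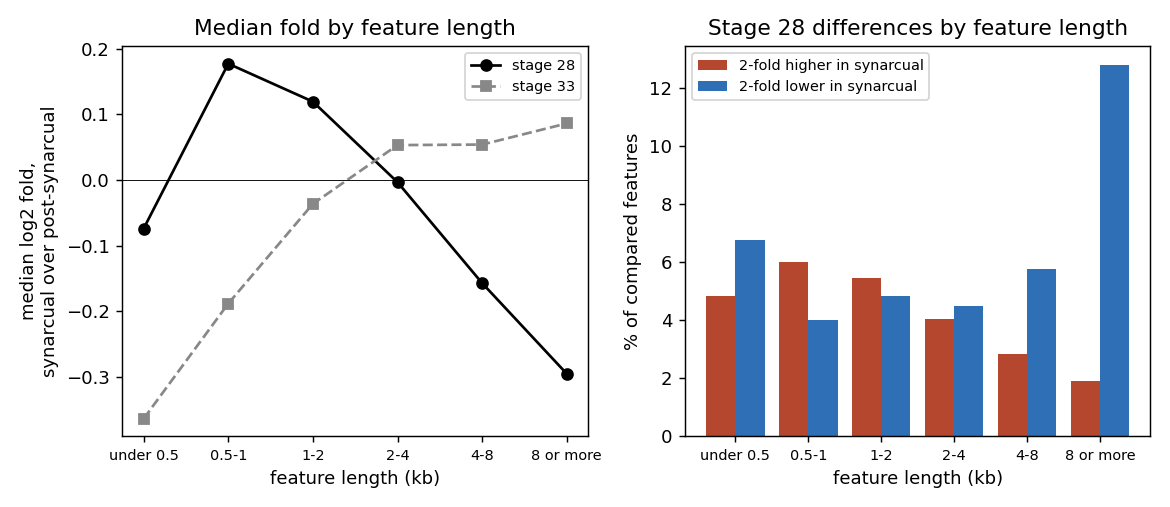
On the left, the median log2 fold of the synarcual over the post-synarcual in 6 classes of feature length at stage 28 and stage 33; on the right, the percentage of compared features in each class at least 2-fold higher or lower in the stage 28 synarcual. At stage 28 the median goes from 0.18 at 500 to 1000 bp to -0.29 at 8000 bp or more, and 12.8% of the longest class were lower.

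Differences also varied with the count. Of the 2690 features with 50 to 100 counts in the higher library 5.87% were 2-fold higher and 5.87% lower, and these shares were 3.34% and 3.8% at 200 to 500 counts. They were larger again among the 580 features with 1000 to 5000 counts, with 5% higher and 8.10% lower, and in the 86 with 5000 or more, with 5.81% and 6.98%. By mean TPM of both stage 28 libraries, the share of lower features did not rise at the highest levels. Of the 1540 features under 10 TPM, 7.60% were higher and 10.5% lower. Of the 295 with 300 to 1000 TPM, 5.1% were higher and 3.39% lower, and of the 149 with 1000 or more, 4.03% and 2.01%. The lower features were more often part of an assembly component with several features: 103 of 522 (19.7%), against 51 of the 465 higher (11.0%) and 14.2% of all compared features. Several transcripts were assembled for 24.7% of the lower, 19.1% of the higher and 24.8% of all compared features.

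Assembly components give a view of how far reads of close copies could be traded between features. Of 492 components with more than 1 compared feature, 78 held at least 1 feature past 2-fold. The 492 components held 1045 compared features, and 9.33% of all 10582 compared features were past 2-fold. How many components that share alone would give was not worked out. In 11 of the 78 components 2 or more features were higher and 0 lower, in 18 the reverse, and in 46 a single feature differed. Features in opposite directions occurred in 3 components, and in each of those the folds were small, with log2 folds of at most 1.32 for the higher feature and of -1.12 at the lowest for the lower. The 522 lower features came from 501 components and the 465 higher from 454.

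The regions could also differ in which transcripts of a feature they used. For a feature with several transcripts the files give a length weighted by the abundance of each transcript, so that a shift between a long and a short transcript changes that length. Of 2382 such features with at least 50 counts in both stage 28 libraries, the weighted length differed at least 1.2-fold in 88 (3.69%), being longer in the synarcual in 47 and shorter in 41. In level, 6 of the 88 were past 2-fold and 62 had log2 folds within 0.5 of 0. Over all 10582 compared features, 9.33% were past 2-fold and 72.9% lay within 0.5, with 50 counts needed only in the higher library. The largest shift upward was in a feature of 3 transcripts with a weighted length of 4622 bp in the synarcual and 1600 bp in the post-synarcual, on 131 and 135 counts. The largest downward was in a feature of 2 transcripts with 1247 and 2905 bp, on 52 and 53 counts. Stage 33 was read for the same shifts. The feature with the largest upward shift had 1983 bp in the synarcual and 2726 bp in the post-synarcual there, on 105 and 55 counts. That with the largest downward shift had 2905 and 826 bp, on 44 and 17 counts. Both shifts were thus reversed, the downward one on fewer than 50 counts in each library. The second-largest shifts in each direction were absent at stage 33. There the upward one had 4612 bp in both regions and the downward one 4781 bp in both. Of the 88 features, 63 had at least 50 counts in both stage 33 libraries, and 25 of these were shifted to the same side. A shift to the same side by at least 1.2-fold was found in 9 of the 63 (14.3%). Among the 1814 features measured at both stages, 80 (4.41%) were shifted by that much to either side at stage 33. No error is given for the weighted lengths in the files, so counting error was not separated from these shifts.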

How the data were processed

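Libraries of total RNA came from a TruSeq kit that does not keep strand, and were read as pairs in a shared HiSeq2000 lane, per the labels' protocols. The submitters' processing notes name Bowtie2 and RSEM; their versions are not given in the sources used. Any filter is likewise unstated. The authors deposited estimated counts, TPM and FPKM per assembled feature. The authors' TPM values are corrected for effective length and scaled to the same total per library; the deposited FPKM values were not used.

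Estimated counts were rounded (1.79% and 1.89% of stage 28 values were not whole at the 2 decimals deposited, with a tolerance of 0). TMM factors came from edgeR 4.0.16 (R 4.3.3) over the 4 libraries, on 14668 features that had 10 counts or more in 2 libraries or more; they were 1.39 (stage 28 synarcual) and 1.44 (post-synarcual). Intervals were computed with scipy 1.17.1, and the rule and intervals were checked on simulated counts. The simulated counts held counting error (Poisson) alone, so the check cannot speak to variation between animals or libraries. If a count stands for a read and not a pair, the intervals are too narrow. The floor for a count of 0 is 3 counts per library: 0.519 CPM for the stage 28 synarcual, 0.53 CPM for the post-synarcual. Features printed by identifier are the 2 in each direction whose counting interval lies farthest from a ratio of 1; others are given by rank and length. The rules, classes and members were chosen with earlier results of these data known. Without strand, reads of overlapping transcripts cannot be told apart.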

Additional observations from a re-analysis of the deposited data

Results flagged for a closer look

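Region differences that pointed in opposite directions at the stages, each by at least 2-fold, were found in 23 features. Of the 244 higher features measured at stage 33, 8 were 2-fold lower there, beside 3.83% of all 8206 features measured at both stages. Of the 376 lower features measured, 15 were 2-fold higher there, beside 4.86% of all 8206. Both shares were below those of all features, so opposite folds were not more frequent among the features that differed at stage 28. No test of this was made, as a group is 1 library, so the stages were not tested against each other. Among the features described by rank, 3 were of this kind. The 9530 bp feature was 2.41-fold higher in the stage 28 synarcual and 3.50-fold lower in the stage 33 synarcual (3.46 to 3.53), from 51062 and 139276 stage 33 counts, and its log2 folds were 3.07 apart. For the 590 bp feature, which was 4.74-fold higher at stage 28, the stage 33 counts were 671 and 1181, which put the synarcual 2.26-fold lower (2.05 to 2.48), and the log2 folds were 3.42 apart. The 585 bp feature gave 527 and 1004 counts at stage 33, which put the synarcual 2.44-fold lower (2.2 to 2.72), and its log2 folds were 3.51 apart. All these stage 33 folds rest on TMM scaling. With total counts the stage 33 median log2 fold of all features moved to 0.46, toward the synarcual. As shares of total counts, the 9530 bp feature stood at 1.08% (synarcual) and 2.74% (post-synarcual) at stage 33, still past 2-fold. The 590 bp feature stood at 0.0142% and 0.0232%, and the 585 bp feature at 0.0112% and 0.0197%. On that scale both were lower in the synarcual by less than 2-fold. How many of all 23 features stay past 2-fold with total counts was not counted.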

How the results depend on the processing

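No paired analysis was possible because each group has 1 library. Across 10 alternatives of scaling, TPM, prior count, shared components, short features and length centring, the number of features 2-fold higher ran from 352 to 480 and of those lower from 419 to 675, within 1.5 times of 465 and 522. Both rested on the minimum count, which also changes the number of features compared, 10582 at 50 counts. With 10 counts 988 were higher and 947 lower of 15140 compared. With 200 counts the numbers were 173 and 205 of 4701, and with 1 count 1593 and 1426 of 21951. The longest class held 12 lower features after length centring, against 20, because its own median was removed. The share of counts in the higher features was 5.37% with total counts, 6.10% with a minimum of 10 and 5.07% with a minimum of 200 in the synarcual, and that of the lower features 6.26%, 6.13% and 5.02% in the post-synarcual. Features again 2-fold apart at stage 33 numbered 39 of 71 higher and 54 of 121 lower with at least 200 counts. With total counts they numbered 144 of 211 and 101 of 411. The shares of all features at these settings were not worked out. Weighted lengths differed in 239 of 2382 features at 1.1-fold and in 23 at 1.5-fold. With at least 200 counts in both libraries, 26 of 1001 features differed by 1.2-fold. Alternatives of scaling moved no fold of the 4 features named by identifier outside its counting interval. The median log2 fold of all compared features, 0.014, was -0.043 with total counts and -0.12 in TPM, and with a minimum of 10 counts or 1 count the higher features outnumbered the lower, the reverse of the order at 50. Depth limits the scarce features: at the main minimum count, a feature with under 50 counts in the higher library was not counted as 2-fold apart.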
